A study of Homo sapiens with 4 samples.

Results

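The subunit genes of RNA polymerases I, II and III were followed in prostate cancer cells depleted of the long non-coding RNA LOC730101, together with POLRMT, the RNA polymerase of mitochondria. Genes were taken by symbol: POLR1, POLR2 or POLR3 followed by a subunit letter from A to N and at most 1 further digit or the letter L, and POLRMT. This gave 35 of the 60606 genes in the count table, and all 35 passed the expression filter that left 19349 genes for testing. Subunits with other symbols, such as CRCP of the Pol III stalk, are not covered.

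All libraries came from 1 cell line, LNCaP-DaroR, an LNCaP derivative made resistant to darolutamide, a drug used against prostate cancer, and kept in it. The label describes the cells as hormone insensitive prostate cancer. The siControl group was transfected with a control siRNA and the siLOC730101 group with a pool of siRNAs against LOC730101, with 2 libraries of polyA RNA in each. Nothing in the labels says that the 2 replicates came from separate cultures, so the p-values measure the spread between these libraries, which may be technical.

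Each nuclear RNA polymerase makes its own class of transcript. Pol I transcribes the large ribosomal RNA precursor in the nucleolus, Pol II makes messenger RNAs and most long non-coding RNAs, and Pol III makes transfer RNAs, 5S ribosomal RNA and other short RNAs. The enzymes share a core: the 2 largest subunits form the active centre, a set of small subunits is common to all 3 enzymes, and 1 assembly dimer is common to Pol I and Pol III and replaced by another in Pol II. POLRMT is unrelated to them in structure, resembles the polymerases of some phages, and transcribes the mitochondrial genome alone.

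The libraries held 39213498 to 53368158 counts. LOC730101 (ENSG00000216775) was counted 2560 and 2370 times in siControl and 633 and 680 times in siLOC730101. Its log2 fold change, siLOC730101 against siControl, was -1.56 (SE 0.12, adjusted p = 4.34e-06). Here and below, adjusted p is from the quasi-likelihood test of edgeR with Benjamini-Hochberg adjustment over all 19349 genes, and a gene was called at an adjusted p under 0.05. The luminal markers of LNCaP cells were present, with KLK3 at 1654 and HOXB13 at 389 normalized CPM in siControl, and 0 of these 8 markers were called. KRT5, TP63, CHGA, PTPRC and CD3E, which mark basal, neuroendocrine and immune cells, had 0 counts in every library. Some other markers of these and of fibroblast and endothelial cells were counted in all 4 libraries. KRT14 had 8 to 24, NCAM1 24 to 64, SYP 86 to 128, VWF 238 to 442 and COL1A1 451 to 797 counts, and none was called. The remaining fibroblast and endothelial markers had at most 2 counts in any library.

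After depletion of LOC730101, most subunit genes differed little from siControl, and the larger values were found among the small subunits. POLR2F and POLR2L, which encode subunits common to all 3 enzymes, had the highest positive log2 fold changes, 0.67 and 0.59, and missed the threshold narrowly with adjusted p = 0.0508 and 0.0571. POLR2J2, a copy of the Pol II subunit gene POLR2J, had the lowest, -1.27 (adjusted p = 0.135). The largest subunits of Pol I, Pol II and Pol III all lay within 0.1 of 0 on the log2 scale.

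At the adjusted threshold, edgeR called 0 of the 35 genes higher, against 0.212% of all genes tested, and 0 lower, against 0.0724%. At an unadjusted p under 0.05, 6 genes (17.1%) were on the higher side, against 6.43% of all genes tested. These were POLR2F, POLR2L, POLR2J, POLR3K, POLR2H and POLR1D. On the lower side there was 1 gene (2.86%), POLR2J2, against 4.39% of all genes. DESeq2 called 2 genes higher, POLR2L (adjusted p = 0.00202) and POLR2F (adjusted p = 0.00422), and 0 lower, while it called 2.46% of the genes to which it gave an adjusted p higher and 0.661% lower. It gave no adjusted p to 7 of the 35, POLR2J2 among them. By DESeq2, the unadjusted p was also under 0.05 for 6 genes on the higher side and 1 on the lower side.

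Both siLOC730101 libraries lay above both siControl libraries for 12 genes (34.3%, against 21.3% of all genes tested) and below them for 7 (20%, against 20.5%), and the groups overlapped for 16. The fold change was positive for 22 genes and negative for 13. The median log2 fold change was 0.027 over the 35 genes and -0.0021 over all genes tested, but -0.0039 and -0.033 with upper-quartile factors and -0.010 and -0.039 with library size only. The positive signs of POLR1F, POLR3A, POLR3E and POLRMT turned negative under both of these scalings. For 1 gene in 2 against 2 libraries, the smallest p of an exact two-sided permutation test is 0.333. In bulk RNA, fewer cells with a transcript and less of it in each cell cannot be told apart.

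**Figure D1:**
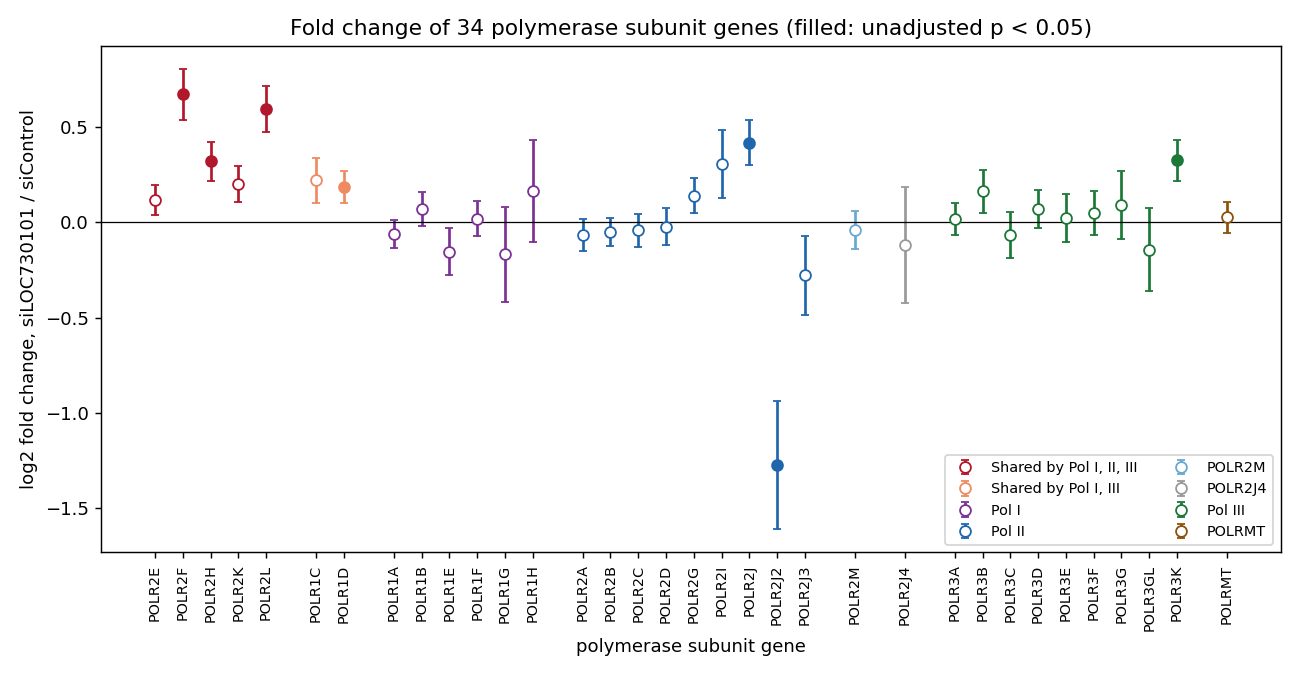
Log2 fold change, siLOC730101 against siControl, of 34 polymerase subunit genes by enzyme. Points are edgeR estimates, bars are standard errors, and filled points have an unadjusted p under 0.05. The 5 subunits common to all 3 enzymes lie above 0, from 0.12 to 0.67, and POLR2J2 lies lowest at -1.27.

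The upstream bases of the members with an unadjusted p under 0.05 are shown first, because these are the genes that the results turn on. Each sequence is the 80 bases just before the RefSeq transcription start on GRCh38.p14, 5′ to 3′ on the gene's strand. POLR2J had no entry in the reference table used here, and 25 of the 35 genes had one. Capitals mark the letters of 5 motifs searched on both strands: CCGGAAG, the core of sites for ETS factors, the palindromic NRF1 motif, GGGCGG, the GC box of SP1, CCAAT and TATAAA.
POLR2F (chr22:37953619-37953698, plus strand): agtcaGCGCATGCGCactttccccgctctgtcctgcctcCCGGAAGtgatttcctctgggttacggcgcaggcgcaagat
POLR2L (chr11:842530-842609, minus strand): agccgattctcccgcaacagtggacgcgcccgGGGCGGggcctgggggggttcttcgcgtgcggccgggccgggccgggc
POLR2H (chr3:184361630-184361709, plus strand): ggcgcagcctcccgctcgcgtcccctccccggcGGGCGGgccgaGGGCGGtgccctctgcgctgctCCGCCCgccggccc
POLR3K (chr16:53609-53688, minus strand): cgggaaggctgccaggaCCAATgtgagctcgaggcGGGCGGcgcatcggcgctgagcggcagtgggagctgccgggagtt
POLR1D (chr13:27620663-27620742, plus strand): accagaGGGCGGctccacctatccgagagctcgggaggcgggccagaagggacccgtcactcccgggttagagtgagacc
POLR2J2 (chr7:102671664-102671743, minus strand): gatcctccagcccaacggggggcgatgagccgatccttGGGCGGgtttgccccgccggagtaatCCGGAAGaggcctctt

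No motif was common to all 6 of these windows. In the whole 250 bases before the start, the ETS core was present in 8 of the 25 subunit genes (32%), against 8.82% of 27305 genes. The NRF1 motif was present in 2 (8%, against 1.13%), of which POLR2F is 1. The GC box was present in 17 (68%, against 42.3%), CCAAT in 6 (24%, against 33.0%) and TATAAA in 1 (4%, against 11.1%). Among the 6 genes with an unadjusted p under 0.05 the ETS core was present in 2, POLR2F and POLR2J2, whose fold changes have opposite signs. The 27305 genes were not limited to those tested here, nor matched for base composition. These are matches of letters, not measured binding sites.

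The subunits common to Pol I, Pol II and Pol III come first. All 5 had a positive fold change, with a median of 0.32 on the log2 scale, and 3 of the 5 had an unadjusted p under 0.05, against 6.43% of all genes tested. In each of the 5, both siLOC730101 libraries lay above both siControl libraries, as in 21.3% of all genes tested. Without siLOC730101 replicate 2 the median of the 5 was 0.19.

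POLR2F encodes a small subunit that helps to hold the clamp onto the core and takes part in assembly of the enzyme. Its level, in counts scaled to the TMM-adjusted library size (normalized CPM), was 20.7 and 18.1 in the siControl libraries and 27.6 and 34.4 in the siLOC730101 libraries. The groups did not overlap, and siLOC730101 replicate 2 was highest. The log2 fold change was 0.67 (SE 0.13, 95% interval 0.39 to 0.96). Without siLOC730101 replicate 2 it was 0.50 (adjusted p = 0.122), and without siLOC730101 replicate 1 it was 0.83 (adjusted p = 3.45e-06). In these fits 1 group has a single library, which is assumed to vary like the libraries of the other group, so that their p-values rest on the spread of that group alone. POLR2F was called in 10 of 14 alternatives, of which 2 were fits with 1 library left out.

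POLR2L encodes a small zinc-binding subunit of the assembly platform. It was measured at 49.7 and 46.9 normalized CPM in siControl and at 61.7 and 83.9 in siLOC730101. The siLOC730101 libraries differed from each other by more than the siControl libraries did, and both lay above them. The log2 fold change was 0.59 (SE 0.12, 95% interval 0.33 to 0.85). Leaving out siLOC730101 replicate 2 gave 0.35 (adjusted p = 0.141), and leaving out replicate 1 gave 0.81 (adjusted p = 3.09e-12). POLR2L was also called in 10 of 14 alternatives, of which 3 left out 1 library. Part of its exons, 22.8% of their bases, overlaps CD151 on the opposite strand, and how reads there were assigned is not known here.

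POLR2H, the third gene of this class with an unadjusted p under 0.05, encodes a subunit that binds the largest subunit. Its levels were 40.7 and 41 normalized CPM in siControl and 46.7 and 55.3 in siLOC730101. The siControl libraries were nearly equal, and siLOC730101 replicate 2 was again the highest. The log2 fold change was 0.32 (SE 0.10, adjusted p = 0.234). Leaving out siLOC730101 replicate 2 gave 0.19 (adjusted p = 0.778), and leaving out replicate 1 gave 0.45 (adjusted p = 0.00479), the only alternative in which it was called.

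POLR2K, a small zinc-binding subunit, was measured at 58.1 and 66.2 normalized CPM in siControl and 68.2 and 74.7 in siLOC730101, with a log2 fold change of 0.20 (SE 0.096, adjusted p = 0.472). POLR2E forms part of the jaw that contacts DNA ahead of the active centre. It was measured at 284 and 286 normalized CPM in siControl and 289 and 329 in siLOC730101, with a log2 fold change of 0.12 (SE 0.079, adjusted p = 0.645) that was 0.018 without siLOC730101 replicate 2 and 0.22 without replicate 1. Both genes lay higher in the siLOC730101 libraries, and neither passed the threshold.

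POLR1C and POLR1D encode the dimer on which Pol I and Pol III are assembled, and mutations of both cause Treacher Collins syndrome. POLR1D had 113 and 123 normalized CPM in siControl and 129 and 138 in siLOC730101. Its log2 fold change was 0.18 (SE 0.082, adjusted p = 0.431, unadjusted p = 0.0395). POLR1C had 20.4 and 20.9 normalized CPM in siControl and 24.3 and 23.9 in siLOC730101, with a log2 fold change of 0.22 (SE 0.12, adjusted p = 0.543). In both genes the groups did not overlap, and in POLR1C the replicates of a group were nearly equal.

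**Figure D2:**
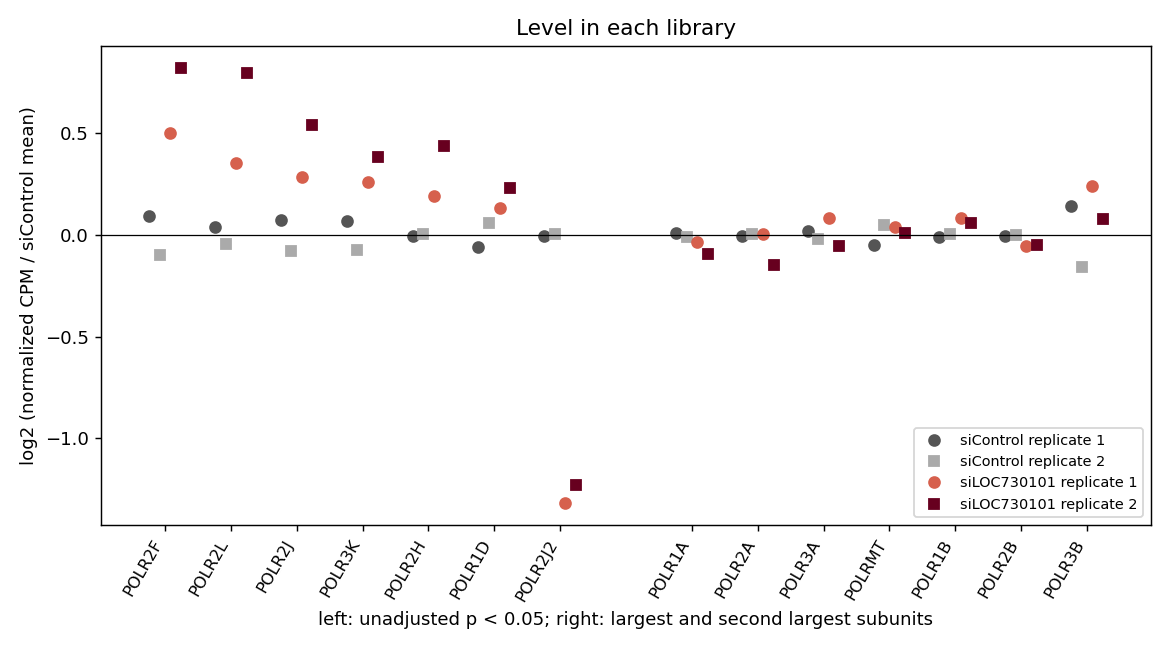
Level of single genes in each of the 4 libraries, as log2 of the normalized CPM over the siControl mean of that gene. On the left are the 7 genes with an unadjusted p under 0.05, in which siLOC730101 replicate 2 lies above replicate 1, POLR2J2 included; on the right are the largest and second largest subunits and POLRMT, of which POLR3B spreads most, its siControl libraries included.

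The 6 subunits specific to Pol I had a median log2 fold change of -0.021, with 3 positive and 3 negative. None had an unadjusted p under 0.05. POLR1A, the largest subunit, which holds the active site, had 225 and 222 normalized CPM in siControl and 219 and 210 in siLOC730101. The siLOC730101 libraries were the lower ones, and the log2 fold change was -0.062 (SE 0.073, 95% interval -0.22 to 0.094). POLR1B, the second largest subunit, had 55.4 and 56.0 normalized CPM in siControl and 58.9 and 58.0 in siLOC730101, and a log2 fold change of 0.071 (SE 0.089, 95% interval -0.12 to 0.26). Both intervals include 0, and with a correction for transcript length POLR1A was at 0.016.

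POLR1E and POLR1G encode a dimer of Pol I that resembles the general factors TFIIE and TFIIF. They had log2 fold changes of -0.15 (SE 0.12, adjusted p = 0.727) and -0.17 (SE 0.25, adjusted p = 0.881), each lower in both siLOC730101 libraries. With 1 library left out they ran from -0.29 to -0.022 for POLR1E and from -0.28 to -0.063 for POLR1G. POLR1G shares 49.8% of its exon bases with ERCC1 on the opposite strand. Without a strand option reads there could not be told apart, and how they were assigned is not known here. The stalk subunit POLR1F had a log2 fold change of 0.020 and POLR1H, the subunit for cleavage of the nascent RNA, one of 0.16 (SE 0.27). Both overlapped between the groups. An antisense gene, ZNRD1ASP, covers 24.5% of the exon bases of POLR1H.

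Pol II had 9 specific genes with a median log2 fold change of -0.042, of which 3 were positive. POLR2A, the catalytic subunit whose tail of repeats is phosphorylated during transcription, had 107 and 108 normalized CPM in siControl and 108 and 97.0 in siLOC730101. Only siLOC730101 replicate 2 lay lower, and the groups overlapped, with a log2 fold change of -0.069 (SE 0.084, 95% interval -0.25 to 0.11). POLR2B, the second largest subunit, had 219 normalized CPM in both siControl libraries and 211 and 212 in siLOC730101. Its log2 fold change was -0.051 (SE 0.072, 95% interval -0.21 to 0.10). Both siLOC730101 libraries were below both siControl libraries.

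POLR2C and POLR2J form the assembly dimer of Pol II, the counterpart of the POLR1C and POLR1D dimer. POLR2C had a log2 fold change of -0.042 (SE 0.085, adjusted p = 0.921). POLR2J had 29.9 and 26.9 normalized CPM in siControl and 34.6 and 41.3 in siLOC730101. Both siLOC730101 libraries were higher, and the log2 fold change was 0.42 (SE 0.12, adjusted p = 0.163, unadjusted p = 0.00299). Leaving out siLOC730101 replicate 2 gave 0.28 (adjusted p = 0.653), and leaving out replicate 1 gave 0.55 (adjusted p = 0.00187).

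POLR2D and POLR2G form the stalk of Pol II, over which the new RNA leaves. Their log2 fold changes were -0.024 (SE 0.096, adjusted p = 0.965) and 0.14 (SE 0.091, adjusted p = 0.632). The value of POLR2G was 0.045 without siLOC730101 replicate 2 and 0.24 without replicate 1. POLR2I, a zinc-binding subunit that takes part in proofreading of the RNA, had a log2 fold change of 0.31 (SE 0.18, adjusted p = 0.572), and its siControl and siLOC730101 libraries overlapped. Leaving out siLOC730101 replicate 1 gave 0.56 and leaving out replicate 2 gave 0.015, so that 1 library carried the value. An unnamed gene on the opposite strand, ENSG00000279504, covers most of the 77.2% of POLR2I exon bases that other genes share. POLR2M, which binds Pol II and limits its initiation, had a log2 fold change of -0.040 (SE 0.098). GCOM1, on the same strand, covers 20.3% of the exon bases of POLR2M.

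POLR2J has close copies on chromosome 7, and their sequences are shown because they decide which reads can be told apart. POLR2J lies at chr7:102473128-102478922, POLR2J3 at chr7:102537918-102572653 and POLR2J2 at chr7:102665368-102671663, all on the minus strand of hg38. The coding sequences below were read from the GENCODE transcripts of the GRCh37 annotation, with positions counted from 1 at the first base of the start codon. The first stretch runs from base 73 to 112 of POLR2J and from 70 to 109 of the others, and capitals mark the positions at which the genes differ.
POLR2J inner stretch: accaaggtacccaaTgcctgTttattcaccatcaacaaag
POLR2J2 inner stretch: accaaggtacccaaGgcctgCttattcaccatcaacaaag
POLR2J3 inner stretch: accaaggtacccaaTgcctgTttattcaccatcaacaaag
The second stretch runs from base 281 of POLR2J, or 278 of the copies, to the end of the coding sequence, and capitals mark the end from the first differing base on.
POLR2J end: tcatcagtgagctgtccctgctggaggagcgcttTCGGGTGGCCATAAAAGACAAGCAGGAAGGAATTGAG
POLR2J2 end: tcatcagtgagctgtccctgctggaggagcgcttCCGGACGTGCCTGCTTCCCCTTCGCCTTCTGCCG
POLR2J3 end: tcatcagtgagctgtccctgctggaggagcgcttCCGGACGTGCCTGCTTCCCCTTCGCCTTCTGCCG

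The coding sequence had 351 bases in POLR2J and 345 in each copy. Before the end stretch, POLR2J and POLR2J3 differed only by 3 bases present in POLR2J alone, and POLR2J2 differed from POLR2J by these and by T87G and T93C. POLR2J2 and POLR2J3 differed at 2 coding bases in all and shared their last bases. Of the windows of 50 bases in POLR2J2 transcripts, 97.6% were also found in transcripts of other genes, mostly POLR2J3. The share was 51.9% for POLR2J3, 35.4% for POLR2J4, 33.3% for POLR2J and 3.18% for POLR2F. The split of reads among the copies is therefore uncertain.

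Reads were assigned to POLR2J2 173 and 151 times in siControl and 53 and 52 times in siLOC730101, or 3.20 and 3.23 against 1.29 and 1.37 normalized CPM. The replicates of each group were close and the groups were far apart. The log2 fold change was -1.27 (SE 0.34, 95% interval -1.99 to -0.56, unadjusted p = 0.00179). Any 3 of the 4 libraries gave values from -1.32 to -1.22. POLR2J3 had 7.34 and 8.05 normalized CPM in siControl and 7.08 and 5.61 in siLOC730101. Both siLOC730101 libraries lay lower, with a log2 fold change of -0.28 (SE 0.21, adjusted p = 0.693). POLR2J4, whose transcript used here has no annotated coding sequence, had one of -0.12 (SE 0.30).

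As a share of the summed level per kilobase of exon, POLR2J held 92.6% ± 0.703 of the 3 coding copies in siControl and 96.7% ± 0.608 in siLOC730101 (SD, n = 2). POLR2J2 held 4.69% ± 0.346 in siControl and 1.52% ± 0.117 in siLOC730101, and POLR2J3 held 2.68% ± 0.357 and 1.75% ± 0.491. These shares depend strongly on the length used, since the exon length of POLR2J3 in the table is 8811 bases and that of POLR2J 937. With the length of 1 transcript per gene, POLR2J held 57.9% in siControl and 72.2% in siLOC730101. Added together, the normalized CPM of the 3 copies were 40.5 and 38.2 in siControl and 42.9 and 48.3 in siLOC730101, a log2 difference of 0.21.

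The 10 subunits specific to Pol III had a median log2 fold change of 0.035, with 8 positive values. POLR3K, the small subunit that cleaves RNA and takes part in termination, had the highest. Its levels were 31.0 and 28.1 normalized CPM in siControl and 35.4 and 38.6 in siLOC730101. The groups did not overlap, and the log2 fold change was 0.32 (SE 0.11, adjusted p = 0.254, unadjusted p = 0.00977). POLR3K was not called in any of the 14 alternatives, in which its adjusted p ranged from 0.0570 to 0.745.

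POLR3A, the catalytic subunit, had 85.2 and 83.0 normalized CPM in siControl and 89.2 and 81.0 in siLOC730101. The siControl libraries lay between the siLOC730101 libraries, and the log2 fold change was 0.017 (SE 0.086, 95% interval -0.17 to 0.20). POLR3B, the second largest subunit, had 48.1 and 39.1 normalized CPM in siControl and 51.6 and 46.1 in siLOC730101. The spread between the siControl libraries exceeded the distance between the group means, with a log2 fold change of 0.16 (SE 0.11, adjusted p = 0.659).

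POLR3C, POLR3F and either POLR3G or POLR3GL form the subcomplex of Pol III used in initiation. POLR3C had a log2 fold change of -0.065 (SE 0.12) and POLR3F one of 0.048 (SE 0.11). POLR3G, known for its expression in stem and tumour cells, had 8.51 and 10.6 normalized CPM in siControl and 9.88 and 10.4 in siLOC730101. POLR3GL, its broadly expressed paralog, had 6.36 and 5.90 in siControl and 5.16 and 5.95 in siLOC730101. Both genes overlapped between the groups, with log2 fold changes of 0.089 (SE 0.18) and -0.14 (SE 0.22).

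Per kilobase of exon, POLR3GL made up 58.9% ± 5.02 of the summed level of the pair in siControl and 54.8% ± 1.60 in siLOC730101 (SD, n = 2). The difference was smaller than the SD of the siControl libraries. With the length of 1 transcript per gene the siControl share was 64.3%, and with the coding length it was 39.8%, so that which paralog had more RNA depended on the length used. Another gene on the same strand, ENSG00000280778, covers 21.1% of the exon bases of POLR3GL. How reads there were assigned is not known here, so the share of the pair is uncertain. POLR3D and POLR3E, the dimer related to TFIIF, had log2 fold changes of 0.071 (SE 0.10) and 0.022 (SE 0.12).

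POLRMT had 96.0 and 103 normalized CPM in siControl and 102 and 100 in siLOC730101. The groups overlapped, and the log2 fold change was 0.027 (SE 0.082, 95% interval -0.15 to 0.20). Of the windows of 50 bases in its transcripts, 22.4% were also found in other genes, mostly the pseudogene POLRMTP1.

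Within each enzyme the RNA levels of the subunits were far from equal, although the proteins of a core enzyme are present in equal number. On the scale of normalized CPM per kilobase of exon in siControl, POLR2E was the highest of the shared subunits at 58.5 ± 0.203 and POLR2F the lowest at 2.77 ± 0.260 (SD, n = 2). Among the Pol II genes, POLR2B (37.2 ± 0.102) and POLR2G (35.4 ± 0.810) were highest and POLR2J3 was lowest at 0.874 ± 0.0570. POLR2A, at 12.8 ± 0.0393, stood below POLR2B. In Pol I, POLR1F was highest at 15.0 ± 0.764 and POLR1H lowest at 0.928 ± 0.0867. In Pol III, POLR3K was highest at 15.8 ± 1.09 and POLR3G lowest at 2.37 ± 0.363, and the neighbouring levels of POLR3B (9.15 ± 1.33) and POLR3D (8.72 ± 0.874) did not differ beyond their spread. POLRMT was at 19.6 ± 0.934. The exon length counts every annotated exon, and for POLR2F it was 7008 bases against 2070 in 1 transcript. Exons shared with other genes hold 49.8% of the bases of POLR1G, 24.5% of POLR1H and 77.2% of POLR2I. The share was 37.3% for POLR2J4, 30.0% for POLR2J3, 22.8% for POLR2L and 18.3% for POLR1C. It was 21.1% for POLR2J2 and for POLR3GL and 20.3% for POLR2M. How reads there were assigned is not known here, so the levels of these genes are uncertain. Some ranks turned per kilobase of 1 transcript: POLR1A (17.9) then stood above POLR1F (15.2), POLR1G (1.58) below POLR1H (4.003), and POLR2G (85.1) above POLR2B (57.9), with POLR2J2 (6.49) lowest in Pol II.

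**Figure D3:**
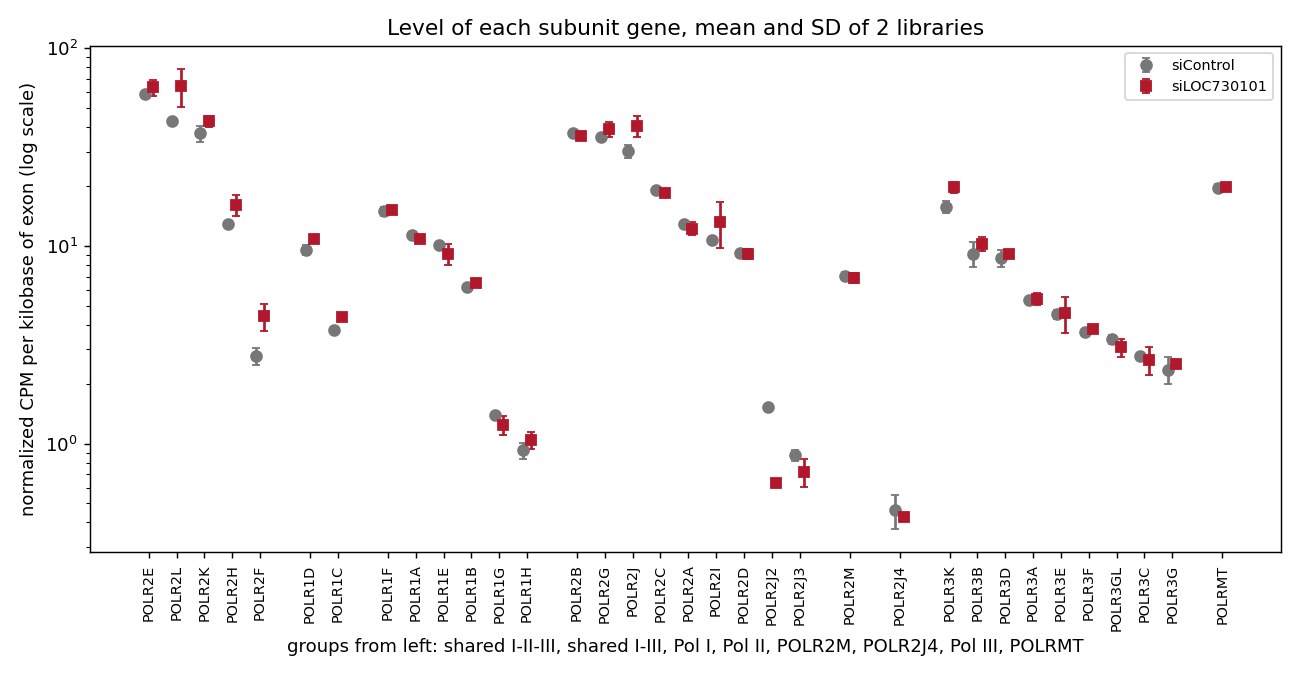
Level of each subunit gene as normalized CPM per kilobase of exon on a log scale, mean and SD of the 2 libraries of a group. Within each enzyme, levels in siControl span a wide range, from 58.5 for POLR2E to 2.77 for POLR2F among the shared subunits, while the siControl and siLOC730101 points of most genes lie close together.

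The genes with the larger values were also genes with short transcripts, and the length of 1 transcript per gene was set beside the fold change. Over the 18913 genes tested that have a length, grouped by length into 5 bins of equal size, the median log2 fold change from the shortest bin to the longest was 0.017, 0.065, 0.018, -0.018 and -0.043. The share of genes on the higher side with an unadjusted p under 0.05 was 10.9% in the shortest bin, 9.76% in the next and 1.96% in the longest. The subunit genes had medians of 0.18, 0.22, 0.048, 0.020 and -0.024 in the same bins, over 9, 7, 3, 9 and 7 genes. All 7 subunit genes with an unadjusted p under 0.05 were in the 2 bins with the shortest transcripts, POLR2J2 included.

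Across the 35 subunit genes, Spearman's rho between length and log2 fold change was -0.31 and Pearson's r with the logarithm of length was -0.015. Between siLOC730101 replicate 2 and replicate 1, whose cells had the same treatment, the log2 difference also varied with length, with a rho of -0.56 and an r of -0.46 over these 35 genes. Between the siControl replicates they were -0.12 and -0.13. Over the 18913 genes, rho was weaker, -0.093 for the groups, -0.14 for the siLOC730101 replicates and -0.036 for the siControl replicates, and r was between -0.025 and 0.0073. These correlations are across genes of the same libraries, which are not independent replicates. When the trend of each library with transcript length was removed, an alternative chosen after seeing the data, the log2 fold change was 0.63 for POLR2F (adjusted p = 0.0348) and 0.52 for POLR2L (adjusted p = 0.0375). With it, 5 subunit genes on the higher side and 1 on the lower side had an unadjusted p under 0.05.

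**Figure D4:**
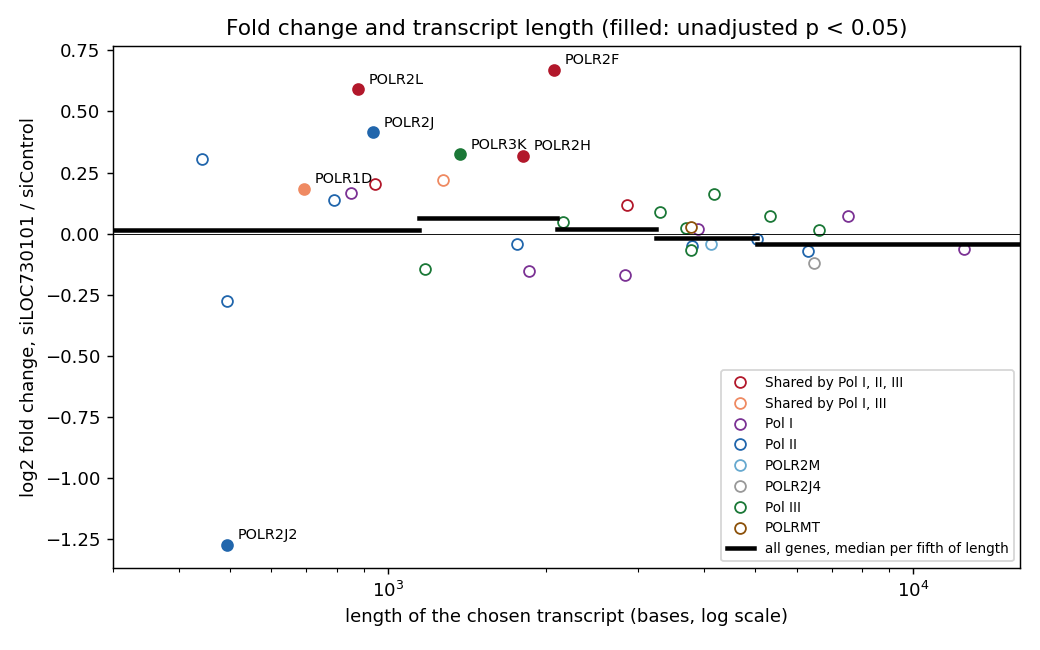
Log2 fold change, siLOC730101 against siControl, of 34 subunit genes against the length of 1 transcript per gene on a log scale. Filled points have an unadjusted p under 0.05, and black lines give the median of all genes in each of 5 bins of length, from 0.017 in the shortest bin to -0.043 in the longest; the filled points all lie among the shorter transcripts.

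The polymerases work with factors that place them on promoters, help them through the gene and assemble them. Of 134 such genes in 7 lists, 130 were tested. edgeR called 0 of them, and 13 on the higher side and 4 on the lower side had an unadjusted p under 0.05, against 6.43% and 4.39% of all genes tested. Transcript length was not taken into account for these lists. Over all genes, the share on the higher side was 10.9% in the bin of shortest transcripts and 1.96% in the longest. The median log2 fold change of the 130 genes was 0.057, with 87 positive and 43 negative values, while 49.6% of all genes tested were positive. GTF2H4, SUPT4H1 and NELFCD had too few counts to be tested, and WDR92 was not found by name.

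Among the 16 Pol III factors, 12 fold changes were positive, while 49.6% of all genes tested were positive. At an unadjusted p under 0.05, 3 genes were on the higher side, against 6.43% of all genes tested, and 0 on the lower side, against 4.39%. SNAPC5, of the complex for snRNA promoters, had a log2 fold change of 0.37 (SE 0.11, adjusted p = 0.170). GTF3C6, of the TFIIIC complex that binds tRNA genes, had one of 0.24 (SE 0.081), and MAF1, the repressor of Pol III, one of 0.21 (SE 0.093). The list thus held an activating and a repressing factor on the same side.

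Of the 31 general transcription factor genes of Pol II that were tested, 5 were on the higher side and 1 on the lower side at an unadjusted p under 0.05. The shares over all genes tested were 6.43% and 4.39%. The lowest p was that of TAF13, a subunit of TFIID, with a log2 fold change of 0.31 (SE 0.090, adjusted p = 0.170), followed by GTF2A2 of TFIIA (0.26) and TAF12 of TFIID (0.36). In the elongation list only TCEA2, a factor that restarts stalled Pol II, had an unadjusted p under 0.05, with 0.33 (SE 0.095, adjusted p = 0.169). Of the 32 Mediator genes, 21 were positive and 11 negative. On each side 2 had an unadjusted p under 0.05, with MED18 at 0.62 (SE 0.23) on the higher side and MED16 (-0.24) and MED13L (-0.23) on the lower side.

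In the list of 15 tested assembly factors, PFDN6 (0.40, SE 0.15) and UXT (0.29, SE 0.13), both of prefoldin-type complexes, had an unadjusted p under 0.05. Both were on the higher side, against 6.43% of all genes tested. Among the 7 Pol I factors, TAF1B alone had an unadjusted p under 0.05, on the lower side, against 4.39% of all genes tested. TAF1B encodes a subunit of the promoter selectivity factor and had a log2 fold change of -0.29 (SE 0.13, adjusted p = 0.443). None of the 6 mitochondrial factors had an unadjusted p under 0.05, and 5 of their fold changes were positive.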

How the data were processed

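RNA was measured in 4 libraries, 2 siControl and 2 siLOC730101. The deposited values are raw counts: after trimming (Trim Galore) and alignment, the authors counted exon reads by gene name with featureCounts 2.0.1 and did not normalize them. The file header names hg38 and GENCODE version 41, and its command has no paired-end, strand or multi-mapping option. The paper's methods name STAR and another build, and the processing notes name BWA.

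The whole table was fitted with edgeR 4.0.16 in R 4.3.3 (filterByExpr at its defaults, TMM, quasi-likelihood test with the legacy method and without robust moderation). DESeq2 1.42.0 was an alternative. The other alternatives were 3 scalings, no filter, other quasi-likelihood settings, the replicate number as a block, halved counts, each library left out, and a transcript-length offset. As a check of the code, the edgeR, DESeq2 and length-offset fits were also run on simulated counts, which had 1 dispersion for all genes and no trend with length. With counts scaled to the library totals, the chi-square per degree of freedom between replicates was 8.96 in siControl and 10.3 in siLOC730101. In both pairs the replicates thus differed by more than random counting of independent reads would give. The biological coefficient of variation was 0.147. Transcript lengths came from GENCODE on GRCh37, upstream sequences from RefSeq. The transcript used was the Ensembl canonical one, and where a gene name had several, a coding and MANE Select one came first. Figures were drawn with matplotlib 3.10.9 in Python 3.11.15.

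Results for 1 member, which stayed in the fits, counts and medians, and for 1 marker gene are not reported here; all other members are named. Values in every library are given for members with an unadjusted p under 0.05, the 2 largest subunits, shared subunits and paralogs; of other lists, up to 3 genes with the lowest unadjusted p. The members and lists were chosen with earlier results of these data known.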

Additional observations from a re-analysis of the deposited data

How the results depend on the processing

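Of 476 single-gene values of 34 members under 14 alternatives, 427 kept their direction and their side of the threshold, 25 passed the threshold, and 24 changed sign; 29 of the 34 genes were called in no alternative. The count called higher, 0 in the fit reported, was 2 with library size only, 3 without the filter, 2 with DESeq2, 2 with the legacy method off, 1 with robust moderation, 2 with halved counts, 2 with the length offset, and 0 to 4 when 1 library was left out (4 without siLOC730101 replicate 1, 2 without siControl replicate 1, 1 without siControl replicate 2). The causes were not tested. The labels do not say whether libraries with the same replicate number were handled together. Differences between the replicates of siControl and of siLOC730101 had a correlation of -0.00090 over 19349 genes. Genes with few counts weighed as much in it as others, so it cannot show that the libraries were unpaired. With the replicate number as a block, 3 members were called higher (POLR2F, POLR2L and POLR2J) and 1 lower (POLR2J2, adjusted p = 0.0254), and the calls over all genes went from 41 to 485 higher and from 14 to 167 lower. Leaving out 1 library gave 4 to 10 members on the higher side at an unadjusted p under 0.05 (10 without siLOC730101 replicate 1). Over all genes, 324 were called higher and 113 lower without the filter, 234 and 63 by DESeq2, 87 and 24 with the legacy method off, 113 and 35 with halved counts, 58 and 35 with library size only, 67 and 28 with the length offset, 38 and 19 with upper-quartile factors, and 77 to 923 higher and 26 to 272 lower with 1 library left out.

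The members' median log2 fold change was -0.0039 with upper-quartile factors, -0.010 with library size only, and 0.011 to 0.075 with 1 library left out (0.075 without siControl replicate 2). With upper-quartile factors and with library size only, in that order, the log2 fold change was -0.011 and -0.017 for POLR1F, -0.013 and -0.019 for POLR3A, -0.010 and -0.019 for POLR3E, and -0.0039 and -0.010 for POLRMT. The length offset gave 0.016 for POLR1A and 0.00011 for POLR2D. With 1 library left out, values ran from -0.031 to 0.075 for POLR1F, -0.14 to 0.0020 for POLR2A, -0.077 to 0.034 for POLR2D, -0.30 to 0.10 for POLR2J4, -0.091 to 0.014 for POLR2M, -0.046 to 0.082 for POLR3A, -0.23 to 0.086 for POLR3C, -0.027 to 0.18 for POLR3D, -0.20 to 0.23 for POLR3E, -0.059 to 0.26 for POLR3G, and -0.020 to 0.079 for POLRMT. In siControl, with transcript length and with coding length, in that order, the share was 64.3% and 39.8% for POLR3GL, 57.9% and 71.8% for POLR2J, 12.4% and 8.28% for POLR2J2, and 29.7% and 19.9% for POLR2J3. These lengths and the length offset were chosen after seeing the data. The planned coding length from protein sequences was not run, because no protein table was used here.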
